A study of Mus musculus with 3 samples.

Results

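The NONCODE transcripts described here are long noncoding RNA entries that lie within, or overlap, a known gene on that gene's own strand. A table row was taken as one when its identifier began with NONMMUG and its span overlapped the span of at least 1 Ensembl gene row (identifier ENSMUSG) on the same chromosome and strand. The rule used positions only and no expression value. It held for 10943 of 57561 rows, 36912 of which carried a NONCODE identifier. Of the other NONCODE rows, 7655 overlapped Ensembl genes on the opposite strand only and 18314 overlapped none. The Ensembl gene with the longest overlap is called the host.

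The cells were MDSCs, myeloid-derived suppressor cells, a cultured population known for restraining T cells. The groups were 1 library from mice lacking the long noncoding RNA lnc57Rik (lnc57Rik KO, genotype lnc57Rik-/-), 1 from mice lacking the long noncoding RNA lncGM1082 (lncGM1082 KO, genotype lncGM1082-/-) and 1 from wild type mice (WT), all labelled as strain C57BL/6. Femur marrow was cultured with GM-CSF and IL6 for 4 days in every group, and total RNA was used. The study's design leaves room for several samples of each genotype, the growth protocol does not name lncGM1082 KO mice, and no source used here gives the animals' age or says whether animals were pooled. None of these transcripts was matched to a deleted RNA, so they do not check the genotype labels.

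NONCODE collects long noncoding RNAs from many mouse tissues and sources, and many of its entries lie inside introns of protein-coding genes. An intron is transcribed as a part of the pre-mRNA and is then spliced out. Total RNA holds unspliced pre-mRNA and excised introns beside mature mRNA, so fragments that fall in an intronic entry can come from the host's own transcription, and fragments that fall in an exon can come from its mRNA. An independent RNA with its own promoter can also lie there. FPKM, the unit of the table, is the number of fragments per length of transcript and per fragments sequenced, so levels of different transcripts can be compared per length.

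A few sequences show what these entries share with their hosts. Coding exons come from GENCODE M21 transcripts on GRCm38, and start windows of 300 bases and mature miRNAs come from RefSeq (GRCm38.p6). The entry NONMMUG068964.1 holds most of a coding exon of Zbp1, a sensor of Z-form nucleic acids, at chr2:173209028-173209249 on the minus strand (capitals mark the 208 of 222 exon bases inside the entry). The entry NONMMUG041329.2 holds a whole coding exon of Nlrc5, an activator of MHC class I genes, at chr8:94490330-94490422 on the plus strand (all 93 bases in capitals). Both are shown because fragments of the host's mRNA can be counted for the entry.
Zbp1 exon: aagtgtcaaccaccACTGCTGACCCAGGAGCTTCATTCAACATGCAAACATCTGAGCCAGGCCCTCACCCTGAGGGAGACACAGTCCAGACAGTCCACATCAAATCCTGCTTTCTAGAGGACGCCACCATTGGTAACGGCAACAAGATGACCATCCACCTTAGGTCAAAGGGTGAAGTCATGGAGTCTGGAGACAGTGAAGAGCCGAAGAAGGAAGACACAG
Nlrc5 exon: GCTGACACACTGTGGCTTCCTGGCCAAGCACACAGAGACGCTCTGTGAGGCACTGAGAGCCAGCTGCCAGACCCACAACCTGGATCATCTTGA
The start windows of Bach2 (chr4:32417185-32417484, plus strand) and Ebf1 (chr11:44617850-44618149, plus strand) are shown because the entries of these hosts moved together, and that of Foxp1 (chr6:99266466-99266765, minus strand) because the entries before and after it differed. Capitals mark matches to 3 motifs searched on both strands, TTCNNNGAA (a STAT-type motif), GAAA followed after any 2 bases by GAAA (an interferon response type motif) and TCCC followed after any 2 bases by GGGA (an EBF-type motif). Bach2 held 1 match of TTCNNNGAA, the Ebf1 window shown held 1 of the interferon response type on the other strand, and the Foxp1 window held no match. Another RefSeq start window of Ebf1, at chr11:44619978-44620277, is not shown and held no match. The motifs occurred in 8.30%, 3.44% and 0.904% of 32851 RefSeq windows of the same length, in the order listed, and no marked match overlapped another motif.
Bach2 window: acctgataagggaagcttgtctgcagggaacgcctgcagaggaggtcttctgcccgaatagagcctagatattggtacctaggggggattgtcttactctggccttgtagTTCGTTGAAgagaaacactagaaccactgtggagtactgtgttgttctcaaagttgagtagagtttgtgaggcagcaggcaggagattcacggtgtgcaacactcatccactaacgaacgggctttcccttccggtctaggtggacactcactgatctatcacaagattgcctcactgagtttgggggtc
Ebf1 window: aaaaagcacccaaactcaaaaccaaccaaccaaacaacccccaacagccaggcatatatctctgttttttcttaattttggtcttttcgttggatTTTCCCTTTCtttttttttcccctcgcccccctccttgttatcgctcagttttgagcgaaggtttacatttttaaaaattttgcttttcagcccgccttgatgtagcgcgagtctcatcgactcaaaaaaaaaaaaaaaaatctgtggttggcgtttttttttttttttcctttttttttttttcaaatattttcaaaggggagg
Foxp1 window: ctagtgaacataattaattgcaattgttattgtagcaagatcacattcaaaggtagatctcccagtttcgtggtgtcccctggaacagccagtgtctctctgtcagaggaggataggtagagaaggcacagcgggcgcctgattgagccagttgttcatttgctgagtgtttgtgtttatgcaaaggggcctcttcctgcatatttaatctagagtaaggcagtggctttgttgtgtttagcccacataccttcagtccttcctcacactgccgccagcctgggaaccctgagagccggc
Of 1005 miRNA hairpins in RefSeq, 45 lay wholly inside 36 of these entries, 19 of which were compared. A mature miRNA from each of the entries NONMMUG013142.3 (Dleu2) and NONMMUG041330.2 (Nlrc5), whose values follow below, is given with its seed, bases 2 to 8, in capitals.
miR-16-5p: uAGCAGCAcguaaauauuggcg
miR-7072-5p: gAGGGGAGacaagaggcaaggc

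The 10943 entries lay on 5280 hosts, and 93.7% lay in protein-coding hosts. Of the hosts, 3124 held 1 entry and 420 held 5 or more. Hdac9, a histone deacetylase gene, held 64, followed by the chromatin remodeller gene Chd1 with 59 and the long noncoding RNA gene Lncpint with 58. By exons of GENCODE M21, 7461 entries lay inside an intron, 2265 lay inside the host and touched an exon, 939 crossed a host end, 263 contained the whole host and 15 had the host's identical span. Of all entries, 740 also lay opposite an Ensembl gene, and 279 had more than 1 host.

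The fragment totals behind the FPKM, found from the steps of low values, were 17593416 in the lnc57Rik KO, 18280373 in the lncGM1082 KO and 18485097 in the WT library. Intervals below are exact (Clopper-Pearson) 95% intervals and cover counting error only. Each genotype had 1 library, so differences have no replicate check and were not tested. An entry was compared when its mean over the 3 libraries was at least 1 FPKM, and calls were made by size alone: higher where log2 of the KO over the WT value, each with 1 FPKM added, reached 1, and lower where it reached -1. This scale understates changes of low values, and the threshold is called the rule of size. Of 10943 entries, 5341 (48.8%) passed the minimum and 5602 did not, while 0 were at 0 in all libraries. All 7 listed myeloid markers were above 1 FPKM in each library, with Itgam taken from the higher of its Ensembl rows. Its other row had 0.663 FPKM in the lnc57Rik KO, 0.786 FPKM in the lncGM1082 KO and 1.13 FPKM in the WT library. The 6 listed lymphoid markers summed to 118 FPKM in the lnc57Rik KO library, 8.66 FPKM in the lncGM1082 KO library and 6.28 FPKM in the WT library. Of these, Cd3g was at 0 in the lncGM1082 KO library and none was at 0 elsewhere. The listed dendritic cell markers summed to 77.7, 66.5 and 30.3 FPKM in the lnc57Rik KO, lncGM1082 KO and WT libraries. Nearly all of that sum was Ccr7, at 74.3, 64.2 and 29.0 FPKM in the same order. Flt3 had 1.90, 1.18 and 0.482 FPKM, and Zbtb46 had 1.43, 1.09 and 0.808 FPKM. The basophil and mast cell markers summed to 58.4, 26.5 and 25.9 FPKM, and the eosinophil markers to 326, 259 and 226 FPKM. The listed myeloid markers did not move alike. Ly6g had 21.1, 33.9 and 73.4 FPKM in the same order, and Csf1r had 107, 130 and 147 FPKM. S100a8 had 2610, 1672 and 2718 FPKM, S100a9 had 4509, 2833 and 4521 FPKM, and Itgam had 31.0, 25.1 and 36.5 FPKM. Cd33 had 28.1, 27.6 and 34.4 FPKM, and Ly6c2 had 353, 206 and 243 FPKM. The part of any of these cell types in the results below was not tested. In bulk RNA, more cells of a type and more RNA per cell cannot be told apart.

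Most of these entries stood well below their hosts. In WT, 4745 of 5341 compared entries (88.8%, interval 88.0 to 89.7%) had a lower FPKM than their host. The share was 89.2% for intronic entries, 93.8% for those touching an exon, 76.7% for those across a host end and 36.4% for those containing the host. Where the host also passed the minimum, an entry's median level was 25.3% of the host's in the lnc57Rik KO, 25.7% in the lncGM1082 KO and 25.9% in the WT library. Levels of entry and host were ranked alike only in part: Spearman's rho over 5081 pairs was 0.44 in the lnc57Rik KO, 0.51 in the lncGM1082 KO and 0.51 in the WT library. These pairs share a library, a gene region and, for many, a host, so no p is given.

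**Figure D1:**
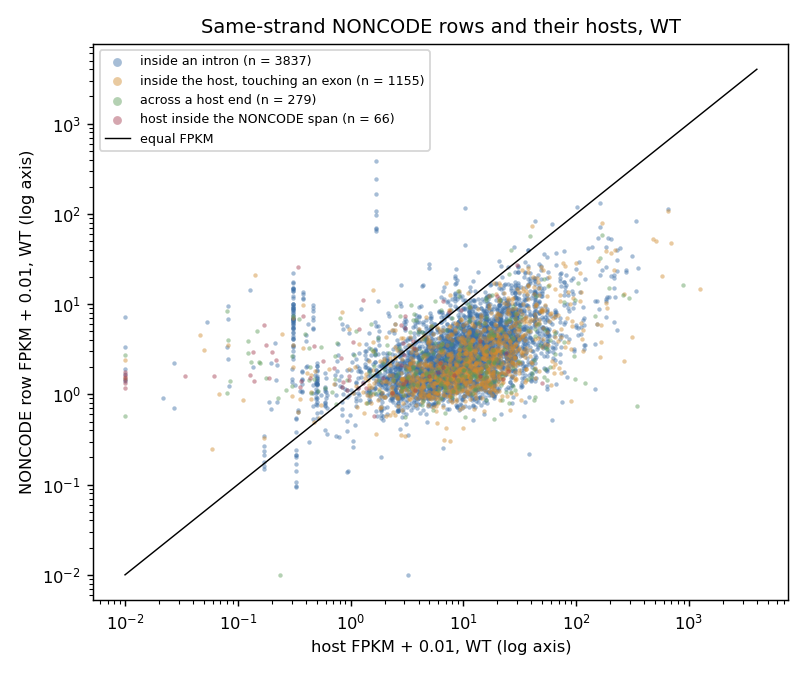
Level of each compared NONCODE transcript (vertical axis, FPKM + 0.01, log axis) against that of its host (horizontal axis, FPKM + 0.01, log axis) in the WT library, coloured by position in the host. The line marks equal FPKM, and 88.8% of all 5341 compared transcripts lie below it.

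Neighbouring sets gave a scale for this link. NONCODE transcripts on the opposite strand only, set against the gene they overlap, had a rho of levels of 0.41 in the lnc57Rik KO, 0.48 in the lncGM1082 KO and 0.47 in the WT library (2753 pairs). Transcripts with no Ensembl overlap, set against the nearest Ensembl gene on their strand, had 0.07, 0.10 and 0.13 in the same libraries (1528 pairs). The correlation was of like size with overlapping genes on either strand and near 0 with a neighbour.

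How much exon an entry held did not bring its level near the host's. Over hosts that averaged 5 FPKM or more, and entries of any level, the entry's median level was 19.01% of the host's with no exon base inside (3499 entries), 12.7% where 25 to 50% of the span was exon (206 entries), 5.201% where 50 to 100% was (203 entries) and 14.9% for entries made of exon alone (71 entries). None of those 71 entries was above its host. Place along the host made little difference to intronic entries: the median was 18.7% of the host's level over the first 20% of the host's length, 20.4% from 40 to 60% and 16.6% from 80 to 100%.

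The steps of the values show how length was counted. For 89.3% of 7445 intronic entries with values low enough to judge, FPKM times span gave whole fragments within 0.05 in each library, so the whole genomic span acted as the transcript's length. The share was 70.2% for entries touching an exon (2240), 50.4% for entries across a host end (896) and 1.76% for entries containing the host (227). Among transcripts on the opposite strand only it was 28.6% (7492), and among those with no Ensembl overlap 68.3% (18278). Fragment counts and ratio intervals below are given only for entries with whole fragments.

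The most abundant entries were not typical of the class. The 3 highest intronic entries lay in 1 host, B230303A05Rik, annotated as a transcribed pseudogene. NONMMUG056626.1 (chromosome 13, 15909980 to 15911344, minus strand) had 239 FPKM in the lnc57Rik KO, 359 FPKM in the lncGM1082 KO and 385 FPKM in the WT library, where the Ensembl row had 1.17, 1.58 and 1.66 FPKM. Of the 23 entries on this host, the 8 centred 113 to 150.2 kb from its start had 64.7 to 385 FPKM in WT, the 14 nearer to the start stayed at or below 1.85 FPKM, and NONMMUG010345.2, with the host's identical span, had 8.12 FPKM. The host's fold against WT was -0.29 in the lnc57Rik KO, and NONMMUG056626.1 had -0.69.

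Lncpint, a long noncoding RNA gene induced by p53, and Dleu2, a long noncoding RNA gene that carries miR-15a and miR-16, showed the same order of levels. All 58 Lncpint entries were above the Ensembl row in WT: their median was 7.14 FPKM in the lnc57Rik KO, 8.35 FPKM in the lncGM1082 KO and 6.93 FPKM in the WT library, with the row itself at 0.424, 0.519 and 0.301 FPKM. On Dleu2, 7 entries had 2.52 to 12.1 FPKM in the lnc57Rik KO, 3.37 to 13.3 FPKM in the lncGM1082 KO and 3.27 to 13.7 FPKM in the WT library, against 0.305, 0.421 and 0.368 FPKM for the row. NONMMUG013142.3, which spans the whole of Dleu2 and the hairpin of the miR-16-5p shown above, had 5.05, 6.70 and 7.33 FPKM. Folds of these low rows are understated by the added 1 FPKM.

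Among entries that touch an exon, the highest lay in Prdx1, a peroxidase, Ccl4, a chemokine, and Vmp1, an autophagy gene. NONMMUG030346.2 (chromosome 4, 116687704 to 116688925, plus strand) had 72.4 FPKM in the lnc57Rik KO, 95.04 FPKM in the lncGM1082 KO and 108 FPKM in the WT library, with Prdx1 at 564, 649 and 650 FPKM. NONMMUG007126.2 in Vmp1, with 1195 exon bases, stood above its host, at 52.7, 66.8 and 73.2 FPKM against 34.2, 40.3 and 40.7 FPKM. An entry that contains its host, NONMMUG020828.2 around Cyb561a3, a lysosomal cytochrome, had 23.5 FPKM in the lnc57Rik KO, 11.9 FPKM in the lncGM1082 KO and 12.3 FPKM in the WT library, where Cyb561a3 had 34.5, 19.8 and 19.97 FPKM. Both were high in the lnc57Rik KO library alone. The identical span did not give identical values: NONMMUG003194.2 had 8.14, 8.59 and 8.83 FPKM, and the Ensembl row C920009B18Rik of the same span had 2.31, 9.78 and 3.96 FPKM.

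In the lnc57Rik KO library, 119 of 5341 compared entries were higher than in WT (2.23%, against 3.39% of all 22202 compared rows) and 47 were lower (0.880%, against 1.53% of all rows). Both shares were under those of the whole table. Their median log2 fold was 0.03, against 0.07 for all compared rows. Of the 119 higher entries, 72 lay in a host that was itself called higher and 114 in a host with a positive fold. Of the 47 lower entries, 15 lay in a host called lower and 35 in a host with a negative fold. No called entry lay in a host called in the opposite direction. The hosts of all compared entries had a median log2 fold of 0.08. Of 108 higher transcripts on the opposite strand only, 35 overlapped a gene called higher and 98 a gene with a positive fold. Of 51 lower ones, 4 overlapped a gene called lower and 46 a gene with a negative fold. There, too, 0 overlapped a gene called in the opposite direction. Because 55 of the 119 higher entries were under 1 FPKM in both other libraries, they passed the minimum only through the library in which they were high. With a minimum mean of 5 FPKM, 8 entries were higher and 13 lower.

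**Figure D2:**
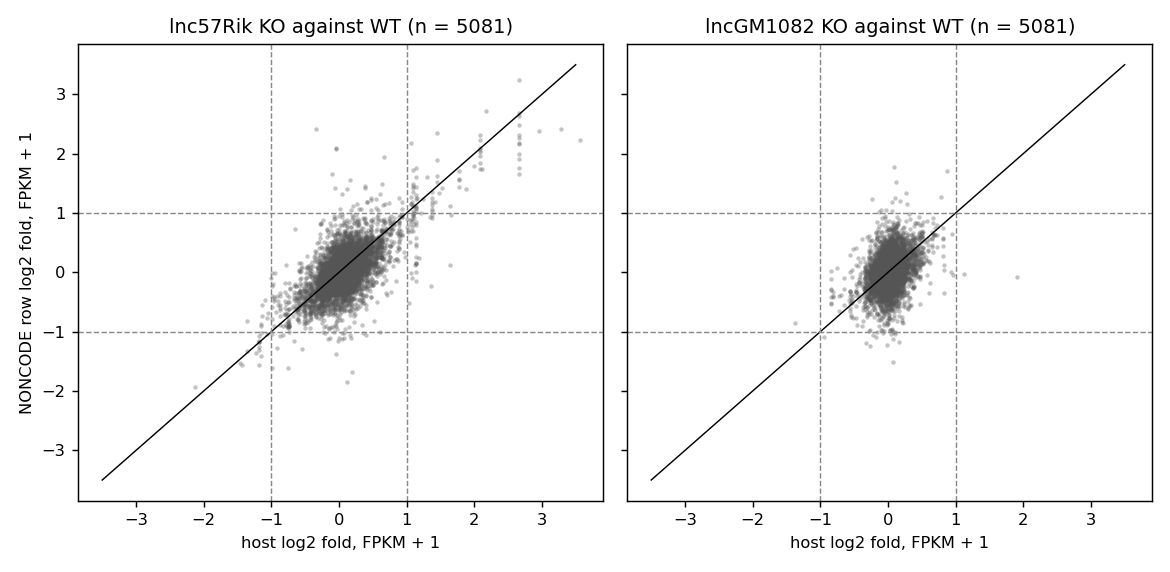
Log2 fold of each NONCODE transcript (vertical axis) against the log2 fold of its host (horizontal axis), both after adding 1 FPKM, for lnc57Rik KO against WT (left) and lncGM1082 KO against WT (right), over 5081 transcripts. The solid line marks equal folds and the dashed lines an absolute log2 fold of 1, and the points follow the line more closely on the left, with a rho of 0.56, than on the right, with 0.34.

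Entries and hosts tended to change in the same direction. Over the 5081 pairs, rho between entry fold and host fold was 0.56 for lnc57Rik KO against WT, with 0.58 for intronic entries, 0.53 for those touching an exon and 0.50 for those across a host end, and 0.15 over the 39 pairs in which the entry contained the host. Opposite-strand transcripts had 0.54, and transcripts outside genes had 0.33 with their nearest gene. The values are descriptions, since the pairs share libraries and hosts.

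Entries in hosts of the lymphoid list were 32 of the 119 higher entries. The list was chosen with earlier results of these data known. Of 22 genes listed, 7 held 56 entries, and 38 of these passed the minimum, with a median log2 fold of 1.80 and a highest of 3.25. In the lnc57Rik KO library 32 of the 38 were higher, against 3.39% of all compared rows. Of the 32, 12 lay in Bach2, 8 in Ebf1, 8 in Foxp1 and 3 in Bcl11a, so few genes carried most of them. Of these 38, 33 were under 1 FPKM in WT and 26 in both WT and the lncGM1082 KO library. With the list's hosts left out, 87 of the 119 higher entries remained, and the share of called entries whose host was called in the same direction was 41.0%, against 52.4% with them. The lymphoid markers that were high in the same library are given above.

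Bach2, a transcriptional repressor of B and T lymphocytes, carried 13 entries, all intronic and spread over its whole length (chromosome 4, 32238804 to 32586108, plus strand). Their levels were 1.26 to 10.4 FPKM in the lnc57Rik KO, 0 to 0.493 FPKM in the lncGM1082 KO and 0.0847 to 0.539 FPKM in the WT library, and Bach2 itself had 7.35, 0.391 and 0.316 FPKM. All 13 had a log2 fold above 1 for lnc57Rik KO against WT, between 1.06 and 3.25, around the host's 2.67. Of the 13, 12 passed the minimum, and all 13 were under 1 FPKM in both other libraries. The 12 thus passed only through the library in which they were high. Bach2 was picked after its values were seen, and 3.39% of all compared rows were called higher in the lnc57Rik KO library. The entry with the highest level, NONMMUG028793.2 (32514787 to 32515053), held 49 fragments in the lnc57Rik KO, 0 in the lncGM1082 KO, where up to 3 are allowed, and 1 in the WT library. Over 10 entries with whole fragments, 1621 fragments in the lnc57Rik KO stood against 79 in WT, a ratio of 21.6 (interval 17.2 to 27.4), and 105 in the lncGM1082 KO gave a ratio of 1.34 to WT (interval 0.994 to 1.82). The Bach2 window shown above lies 179 kb inside the Ensembl span, and entries with whole fragments on its sides had overlapping intervals, with a ratio of 21.6 (interval 15.2 to 31.9) over 4 before it and 21.5 (interval 16.0 to 29.5) over 6 after it.

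Ebf1, a transcription factor that specifies the B lineage, showed the same (chromosome 11, 44617317 to 45008091, plus strand). Its 12 entries, 9 of them intronic, had 0.484 to 5.25 FPKM in the lnc57Rik KO, 0.0549 to 0.487 FPKM in the lncGM1082 KO and 0.0136 to 0.332 FPKM in the WT library, and Ebf1 had 3.95, 0.258 and 0.161 FPKM. Ebf1 was also picked after its values were seen. Every entry was higher in the lnc57Rik KO than in both other libraries. Of the 12, 8 passed the minimum, only through the lnc57Rik KO library. All 8 were called higher, against 3.39% of all compared rows. With entries under the minimum taken in, 10 of 12 reached a log2 fold of 1. Over the 12 entries, summed fragments were 1705, 151 and 107, a ratio of lnc57Rik KO to WT of 16.7 (interval 13.8 to 20.5). Transcripts on the opposite strand of the same genes, picked after their values were seen, were also highest in the lnc57Rik KO. Of 3 opposite Ebf1 introns, NONMMUG005880.2 had 5.22 FPKM in the lnc57Rik KO, 0.520 FPKM in the lncGM1082 KO and 0.257 FPKM in the WT library, NONMMUG053034.1 had 7.50, 0.252 and 0.166 FPKM, and NONMMUG053033.1 had 3.57, 0 and 0.510 FPKM. NONMMUG073096.1, opposite a Bach2 intron, had 7.28, 0.0637 and 0.441 FPKM. Bcl11a, a zinc finger factor needed for lymphoid development, carried 4 entries with log2 folds of 1.01 to 1.89, around its own 1.45. Of the 4, 3 passed the minimum, and all 3 were called higher. Among them, NONMMUG005553.2 and NONMMUG005555.2 were under 1 FPKM in both other libraries, so they passed only through the lnc57Rik KO library.

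Foxp1, a forkhead factor with a role in early B cell development, had entries that did not move as 1 block (chromosome 6, 98925338 to 99522721, minus strand). The gene's own level was 6.95 FPKM in the lnc57Rik KO, 4.01 FPKM in the lncGM1082 KO and 2.61 FPKM in the WT library, a log2 fold of 1.14 for lnc57Rik KO against WT. Of its 24 entries, 11 lay before the RefSeq start window shown above, which is 256 kb inside the gene, 12 lay after it and 1 overlapped it. The 12 after it had 1.75 to 5.45 FPKM in the lnc57Rik KO and 0.642 to 1.83 FPKM in the WT library, and 8 of them were called higher. The 11 before it, 1 of which was compared, had 0.289 to 1.24 FPKM and 0.176 to 0.9996 FPKM in the same libraries, and 0 were called. Of all compared rows, 3.39% were called higher in the lnc57Rik KO library. Among the 8 called entries, NONMMUG036131.2, NONMMUG036134.2 and NONMMUG036137.2 were under 1 FPKM in both other libraries. They passed the minimum only through the library in which they were high. Summed fragments of the entries after the window were 1351 in the lnc57Rik KO and 459 in WT, a ratio of 3.09 (interval 2.78 to 3.45); for the entries before it they were 180 and 152, a ratio of 1.24 (interval 0.997 to 1.55). The window was picked because its sides differed, and the intervals cover counting error only, so they cannot test for a boundary there. For lncGM1082 KO against WT the ratios were 1.32 (interval 1.16 to 1.49) after the window and 0.838 (interval 0.657 to 1.07) before it. RefSeq holds 3 start windows for Foxp1. The one used was picked after the values were seen, and no split was made at the others, which start at 99520944 and 99028249. Foxp1 and the other hosts described along their length were also picked after their values were seen.

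**Figure D3:**
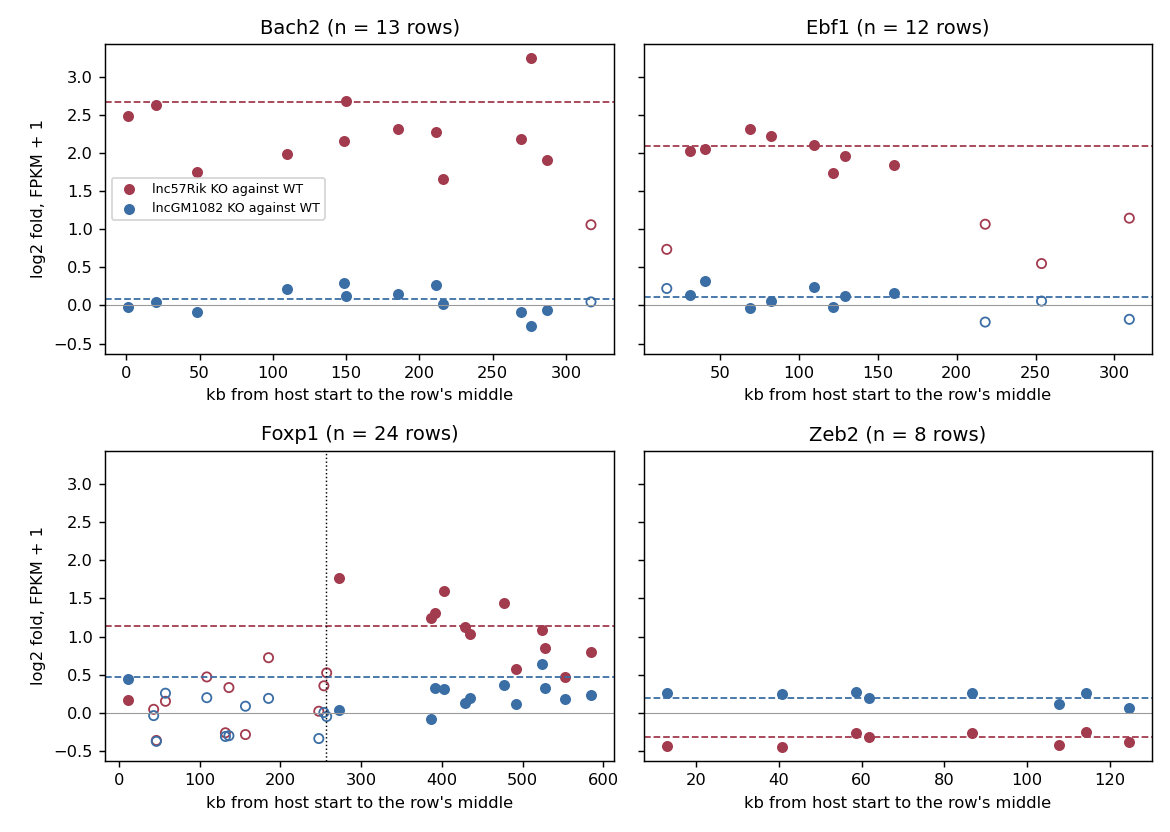
Log2 fold against WT (vertical axis, FPKM + 1) of each NONCODE transcript on Bach2, Ebf1, Foxp1 and Zeb2 by its distance from the host's start (horizontal axis, kb), red for lnc57Rik KO and blue for lncGM1082 KO. Filled points have a mean of at least 1 FPKM, dashed lines give the host's own fold, and the dotted line in Foxp1 marks the internal RefSeq start at 256 kb, after which the red points lie between 0.47 and 1.76.

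Of the other lists, that of interferon response hosts held the most higher entries, nearly all of them in Nlrc5. From a list of 20 genes, 4 hosts held 12 entries, and 11 were compared, with a median log2 fold of 1.06 for lnc57Rik KO against WT. In the lnc57Rik KO library 7 were higher, against 3.39% of all compared rows. Of the 11, 8 lay in Nlrc5, and 6 of the 7 higher ones were among them. The FPKM of Nlrc5 itself was 38.9 in the lnc57Rik KO, 17.4 in the lncGM1082 KO and 14.5 in the WT library. The entry with the shown Nlrc5 exon, NONMMUG041329.2, had 14.5, 8.49 and 7.24 FPKM, and its neighbour NONMMUG041331.2, which lies in an intron (94512778 to 94515129) and holds no exon base, had 4.83, 2.0002 and 1.66 FPKM. NONMMUG041330.2, which spans the miR-7072 hairpin, had 4.81, 2.05 and 1.78 FPKM. All 8 had a positive fold, from 0.91 to 1.36, and the host had 1.37. Over the 4 entries with whole fragments the ratio of lnc57Rik KO to WT was 3.11 (interval 2.58 to 3.77).

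Zbp1 and Mndal, interferon-inducible genes outside that list, carried entries with shared coding exons. NONMMUG068964.1, which holds the Zbp1 exon shown above, had 8.97 FPKM in the lnc57Rik KO, 3.45 FPKM in the lncGM1082 KO and 2.93 FPKM in the WT library, and Zbp1 had 54.9, 20.97 and 19.1 FPKM. Entry and host had nearly the same fold, 1.34 and 1.47. NONMMUG002497.2 in Mndal (chromosome 1, 173871548 to 173873771, minus strand; 168 exon bases) had 9.84, 2.46 and 3.48 FPKM, a ratio of lnc57Rik KO to WT of 2.83 (interval 2.33 to 3.45), and Mndal had 24.8, 10.6 and 11.3 FPKM. In H2-Aa, a chain of MHC class II, the entry had the larger fold: NONMMUG018113.2 had 9.45, 1.53 and 1.72 FPKM (log2 fold 1.94), and H2-Aa had 117, 54.4 and 73.2 FPKM (log2 fold 0.66).

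Among the lower entries, 1 each in Fn1, Vcan and Spp1 and 2 in Fbxl5 were lowest in the lnc57Rik KO and highest in the WT library. The Fn1 (fibronectin) entry NONMMUG000965.2 (chromosome 1, 71593789 to 71594921, minus strand, intronic) had 0.903 FPKM in the lnc57Rik KO, 2.99 FPKM in the lncGM1082 KO and 6.25 FPKM in the WT library, with Fn1 at 48.4, 82.2 and 216 FPKM. In Vcan, which encodes the matrix proteoglycan versican, NONMMUG011545.2 had 2.40, 7.30 and 7.47 FPKM, and its ratio of lnc57Rik KO to WT was 0.321 (interval 0.214 to 0.469), where the host's FPKM was 7.55, 15.5 and 21.03. In Spp1 (osteopontin) the entry had the larger negative log2 fold, -1.29 against -0.54: NONMMUG033182.2 had 7.67, 15.9 and 20.2 FPKM, a ratio of 0.379 (interval 0.316 to 0.453), and Spp1 had 392, 488 and 572 FPKM.

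Fbxl5, an iron-sensing subunit of a ubiquitin ligase, carried an entry almost as abundant as itself. NONMMUG032328.2 (chromosome 5, 43784046 to 43786117, minus strand, no exon base) had 49.4 FPKM in the lnc57Rik KO, 93.0 FPKM in the lncGM1082 KO and 132 FPKM in the WT library, against 72.6, 129 and 163 FPKM for Fbxl5. A second intronic entry, NONMMUG075470.1 (43752909 to 43754271), had 37.7, 59.0 and 71.6 FPKM, a ratio of lnc57Rik KO to WT of 0.527 (interval 0.486 to 0.571). Another one, 13.4 kb from the gene's start, NONMMUG075471.1, was under the minimum, at 0.656, 0.474 and 0.417 FPKM, and did not share the order. NONMMUG032327.2, which touches an exon, had 0.762, 2.36 and 2.58 FPKM. With a log2 fold of -1.02 for lnc57Rik KO against WT, it was called lower, as NONMMUG032328.2 was. The opposite-strand transcript NONMMUG074266.1, which overlaps 725 bases of NONMMUG032328.2, had 34.2, 56.8 and 83.9 FPKM, and whether fragments were split by strand is not stated in any source used here.

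Other intronic entries were higher or lower beside an Ensembl host row with a smaller fold. In AU020206, a long noncoding RNA gene, NONMMUG079924.1 had 18.7 FPKM in the lnc57Rik KO, 7.80 FPKM in the lncGM1082 KO and 7.17 FPKM in the WT library, a ratio of lnc57Rik KO to WT of 2.61 (interval 2.07 to 3.30), where the Ensembl row was at 0.0357, 0 and 0 FPKM. Another entry, NONMMUG038402.2, spans nearly the whole of AU020206 on the same strand (chromosome 7, 75769066 to 75782085) and was high in the same library, at 6.004, 2.41 and 2.37 FPKM. In Atg16l2, an autophagy-related gene, NONMMUG080081.1 had 15.8, 7.74 and 6.38 FPKM and the host 4.32, 3.29 and 2.98 FPKM. NONMMUG079924.1 and NONMMUG080081.1 were highest in the lnc57Rik KO library and stood above the Ensembl rows of their hosts. Fchsd2 spans the whole of NONMMUG080081.1 on the opposite strand and had 7.30, 4.79 and 3.89 FPKM, and no source used here states whether fragments were split by strand. In the opposite direction, NONMMUG009466.2 in Sipa1l1 had 1.61, 8.42 and 7.01 FPKM on 14, 76 and 64 fragments, a ratio of lnc57Rik KO to WT of 0.230 (interval 0.119 to 0.414), and Sipa1l1 had 16.4, 31.5 and 28.4 FPKM.

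Some entries left their hosts, with NONMMUG016749.2 first among them. It lies in an intron of Filip1l, a filamin-interacting protein gene (chromosome 16, 57391107 to 57391681, plus strand), and holds no exon base. Its level was 235 FPKM in the lnc57Rik KO, 150 FPKM in the lncGM1082 KO and 43.3 FPKM in the WT library, against 22.1, 30.1 and 28.2 FPKM for Filip1l. Both KO libraries were above WT, with log2 folds of 2.41 and 1.77, where the host had -0.34 and 0.09. The gene Cmss1 also spans this place on the opposite strand, with no exon base there, at 2.69, 0.706 and 1.75 FPKM. A neighbour of the entry's kind in the same host had 3.14 FPKM in the lnc57Rik KO, 5.61 FPKM in the lncGM1082 KO and 5.34 FPKM in the WT library. The values of NONMMUG016749.2 were not whole fragments of its span, so no interval is given.

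**Figure D4:**
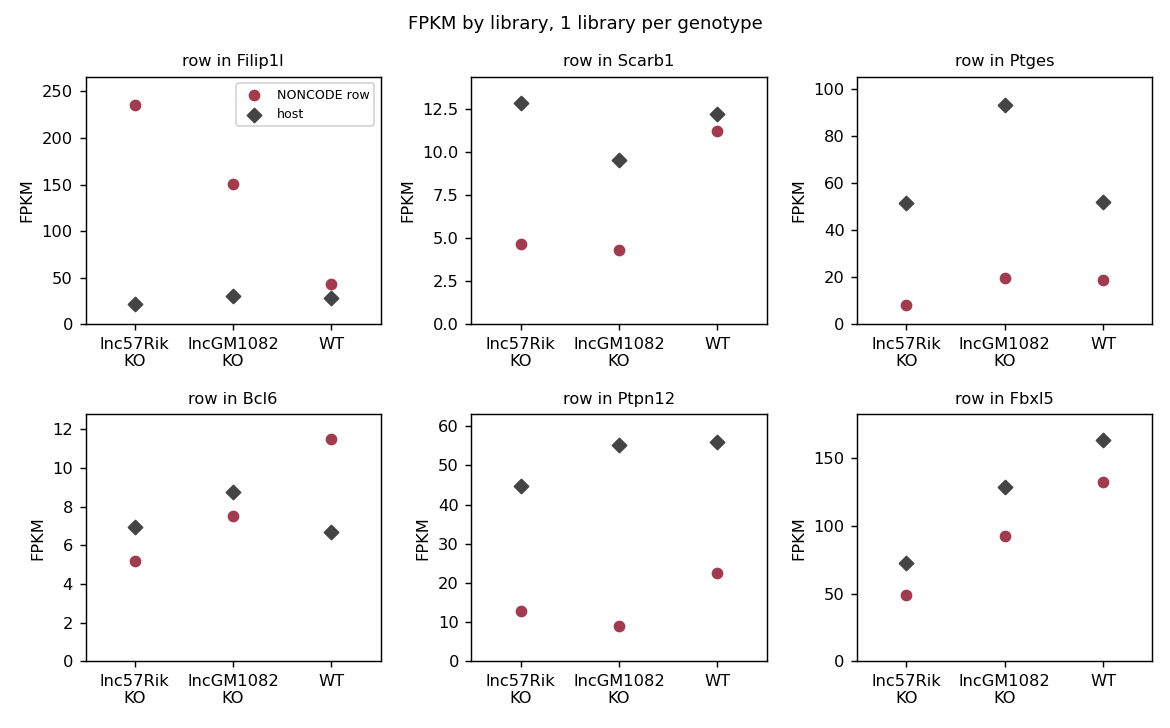
FPKM (vertical axes, each starting at 0) of 6 NONCODE transcripts (red circles) and of their hosts (dark diamonds) in the lnc57Rik KO, lncGM1082 KO and WT library. The transcript in Fbxl5 runs parallel to its host, and the one in Filip1l stands at 235, 150 and 43.3 FPKM over a host between 22.1 and 30.1 FPKM.

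In Scarb1, the receptor for high-density lipoprotein, NONMMUG076116.1 (chromosome 5, 125336396 to 125339421, minus strand, intronic) had 4.65 FPKM in the lnc57Rik KO, 4.34 FPKM in the lncGM1082 KO and 11.2 FPKM in the WT library, with the host at 12.9, 9.55 and 12.2 FPKM. Both KO libraries were low against WT, while the host changed little. In Bcl6, a transcriptional repressor, the intronic NONMMUG016093.2 had 5.16, 7.53 and 11.5 FPKM, ratios to WT of 0.449 (interval 0.353 to 0.568) and 0.655 (interval 0.532 to 0.804), and Bcl6 had 6.95, 8.73 and 6.70 FPKM. In Ptges, which makes prostaglandin E2, NONMMUG068112.1 crosses the host's start and had 7.91, 19.5 and 18.9 FPKM, with Ptges at 51.6, 93.2 and 52.1 FPKM. That entry also contains the Ensembl row Gm13400, which had 31.6, 60.9 and 43.3 FPKM. NONMMUG006569.2 in Acap1, which touches 235 exon bases, had 8.09, 3.61 and 4.13 FPKM and was high in the lnc57Rik KO library, while Acap1 had 28.5, 27.6 and 31.3 FPKM.

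The comparison of lncGM1082 KO with WT gave far fewer calls. Of 5341 entries, 17 were higher (0.318%, against 0.865% of all compared rows) and 16 lower (0.300%, against 0.946%), and the host was called in the same direction for 0 of these 33. A host with the entry's sign was found for 11 of the 17 and 9 of the 16. For transcripts on the opposite strand only, it was found for 21 of 33 higher and 23 of 34 lower ones. The largest higher entry was NONMMUG016749.2 in Filip1l, described above. Among the lower ones, NONMMUG075260.1 in an intron of Ptpn12, a tyrosine phosphatase gene, had 12.8 FPKM in the lnc57Rik KO, 9.07 FPKM in the lncGM1082 KO and 22.4 FPKM in the WT library, with Ptpn12 at 44.7, 55.2 and 55.9 FPKM. The opposite-strand transcript NONMMUG074046.1 overlaps it and had 20.5, 17.4 and 22.2 FPKM. In Slc1a5, a glutamine transporter gene, NONMMUG037321.2 had 7.91, 2.66 and 6.48 FPKM on 43, 15 and 37 fragments, a ratio of lncGM1082 KO to WT of 0.410 (interval 0.209 to 0.765). Slc1a5 itself had 26.9, 13.6 and 13.1 FPKM. The entry NONMMUG094494.1 in Lncpint had 4.49, 9.54 and 4.09 FPKM, and 46 of the 58 Lncpint entries had a positive fold for lncGM1082 KO against WT. At short spans such as these the intervals were wide.

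Further intronic entries set the lncGM1082 KO library apart from both others. On the high side, NONMMUG000975.2 in Mreg had 14.3 FPKM in the lnc57Rik KO, 25.2 FPKM in the lncGM1082 KO and 12.7 FPKM in the WT library, where Mreg had 46.4, 56.95 and 41.3 FPKM. In Abcc5, a transporter gene, NONMMUG015995.2 had 7.41, 14.9 and 7.94 FPKM, a ratio of lncGM1082 KO to WT of 1.88 (interval 1.66 to 2.14), where Abcc5 had 39.6, 64.1 and 46.8 FPKM. In both, host and entry were highest in the lncGM1082 KO library, and neither entry passed the rule of size. On the low side, NONMMUG004383.2 in Slc25a3, the mitochondrial phosphate carrier gene, had 7.62, 3.34 and 7.48 FPKM, a ratio of 0.446 (interval 0.226 to 0.841), where Slc25a3 had 32.9, 28.5 and 27.8 FPKM. NONMMUG096512.1 in Gm21887 had 11.6, 3.74 and 9.63 FPKM, and its host's FPKM was 4.19, 4.83 and 4.21. These entries were low in the lncGM1082 KO library where their hosts were not.

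Folds of entry and host were less alike in this comparison, with a rho of 0.34 over 5081 pairs, 0.35 for intronic entries and 0.31 for those touching an exon. Opposite-strand transcripts had 0.24 and transcripts outside genes 0.19. The hosts also moved less here: over intronic entries with at least 300 fragments per library, the SD of host folds was 0.17 for lncGM1082 KO against WT, while it was 0.31 for lnc57Rik KO against WT.

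How closely an entry tracked its host went with the fragments behind it. Among intronic entries with whole fragments, rho of folds for lnc57Rik KO against WT was 0.38 under 30 fragments per library on average (339 entries), 0.54 at 30 to 100 (1434), 0.63 at 100 to 300 (1122) and 0.80 at 300 or more (307). For lncGM1082 KO against WT it was 0.23, 0.29, 0.42 and 0.64 in the same order. Entries touching an exon gave 0.29, 0.48, 0.59 and 0.69 for lnc57Rik KO against WT. Intronic transcripts on the opposite strand of a gene climbed as well for lnc57Rik KO against WT, with 0.22, 0.51, 0.69 and 0.93 on 151, 142, 66 and 11 transcripts. For lncGM1082 KO against WT they had 0.06, 0.18, 0.42 and 0.25. Transcripts outside genes with as many fragments reached 0.48 and 0.23 at 300 or more, on 50 transcripts. The correlation was higher in each deeper bin of same-strand intronic entries, and in the deepest bin it was higher there than outside genes.

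**Figure D5:**
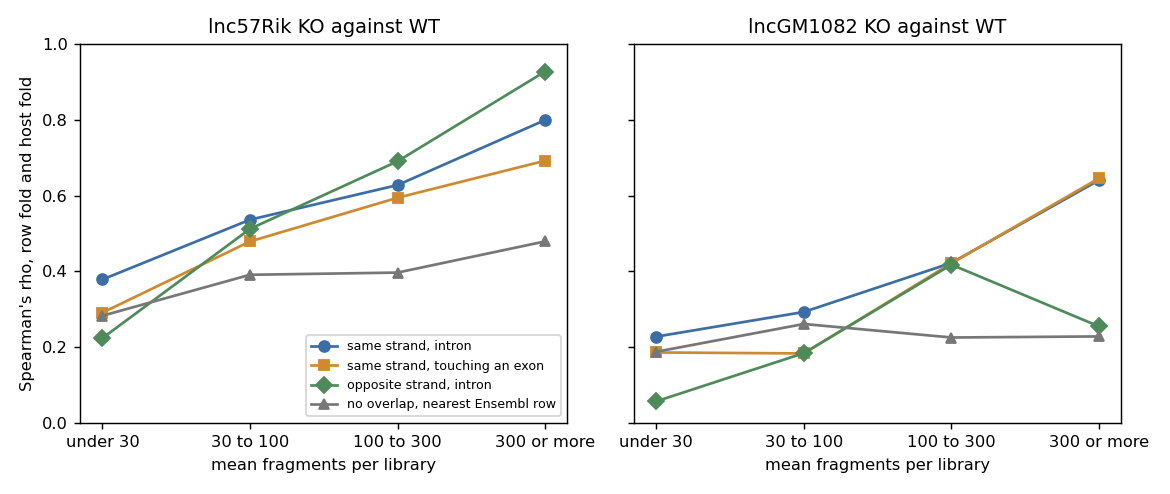
Spearman's rho between a NONCODE transcript's log2 fold and that of its host (vertical axis) by mean fragments per library (horizontal axis, 4 bins), for lnc57Rik KO against WT (left) and lncGM1082 KO against WT (right). Blue circles are same-strand intronic transcripts, orange squares same-strand transcripts touching an exon, green diamonds intronic transcripts on the opposite strand, and grey triangles transcripts outside genes, set against the nearest gene. Same-strand intronic transcripts climb to 0.80 and 0.64, and opposite-strand ones reach 0.93 and 0.25 on 11 transcripts.

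For 4137 entries with whole fragments and a compared host, the interval of the entry's ratio of lnc57Rik KO to WT left out the host's ratio in 21.4%, with 358 above and 529 below it. For lncGM1082 KO against WT it did so for 19.4% of 4136 entries, 385 above and 418 below. The host's ratio was taken as fixed, so its own counting error is not in these shares. For transcripts that lie only opposite a gene, taken the same way, the share was 23.4% for lnc57Rik KO and 21.3% for lncGM1082 KO, on 616 transcripts. At least 5 compared entries were held by 177 hosts. For the 170 of them that reached 1 FPKM themselves (1185 entries), rho between the host's fold and the median fold of its entries was 0.84 for lnc57Rik KO against WT and 0.59 for lncGM1082 KO against WT. Over all 177 (1305 entries) it was 0.83 and 0.58. The 7 hosts under 1 FPKM include Lncpint with 58 compared entries, Hdac9 with 21, Zbtb20 with 9 and Dleu2 with 7. For lnc57Rik KO against WT, the log2 fold of Hdac9 was 0.21 and the median of its entries -0.13.

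Zeb2, a transcription factor of myeloid cells, is such a host. Its 8 entries had 7.38 to 28.8 FPKM in the lnc57Rik KO, 11.0 to 47.1 FPKM in the lncGM1082 KO and 8.997 to 39.7 FPKM in the WT library, and Zeb2 had 29.9, 43.1 and 37.5 FPKM. Each of the 8 had a negative fold for lnc57Rik KO against WT, from -0.45 to -0.25, beside the host's -0.32, and a positive one for lncGM1082 KO against WT, from 0.06 to 0.27, beside 0.20. None passed the rule of size. Summed fragments of the 7 entries with whole steps were 3913, 6015 and 5244, which gave ratios to WT of 0.784 (interval 0.752 to 0.817) and 1.16 (interval 1.12 to 1.20).

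Few entries lay in hosts of the other lists, which were also chosen with earlier results known. Among suppressive effectors, 4 compared entries included NONMMUG021134.2 in Cd274, the gene of the checkpoint ligand PD-L1, at 38.1 FPKM in the lnc57Rik KO, 38.7 FPKM in the lncGM1082 KO and 29.9 FPKM in the WT library, with Cd274 at 207, 237 and 157 FPKM. An entry across the end of Nos2, the inducible nitric oxide synthase gene, NONMMUG052298.2, had 9.66, 25.8 and 16.1 FPKM, and Nos2 had 426, 1087 and 886 FPKM. Both entries kept the order of their hosts over the 3 libraries. In Fpr2, a formyl peptide receptor gene of neutrophils, NONMMUG017603.2 had 27.1, 32.3 and 38.3 FPKM, and Fpr2 had 157, 172 and 183 FPKM. In Nr4a1, an immediate early gene, 3 entries had log2 folds of 0.57 to 0.74 for lncGM1082 KO against WT, against 0.11 for the host. Over the lists, 1 of 15 compared entries in myeloid transcription factor hosts and 2 of 5 in monocyte and macrophage hosts were lower for lnc57Rik KO against WT, with median log2 folds of -0.32 and -0.81, and 1 of 6 in dendritic cell hosts was higher, with a median of 0.37. Of all compared rows, 1.53% were lower and 3.39% higher in that comparison. None was called for lnc57Rik KO against WT among 4 in suppressive effector, 65 in long noncoding and small RNA, 3 in cell cycle, 3 in immediate early, 1 in neutrophil and 1 in eosinophil, basophil and mast cell hosts, whose medians were 0.27, 0.05, 0.39, 0.49, -0.48 and 0.21. For lncGM1082 KO against WT, 1 entry in all these lists was called, that in Lncpint. No entry lay in a host of the lncGM1082 locus list.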

How the data were processed

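The values are FPKM per gene or NONCODE entry, as deposited by the authors in 1 table with 1 column per library. Bowtie 0.12.2 and the build mm9 are named, with no role, in the submitters' processing notes. The table's positions follow GRCm38: 19570 of 20634 matched Ensembl rows had the identical position in GENCODE M21. The counting program and its strand setting are named in no source used here, so fragments of overlapping genes on opposite strands may not have been told apart. Members, gene lists and rules were chosen with earlier results of these data known.

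Python 3.11.15 with pandas 2.3.3, numpy 2.4.6, scipy 1.17.1 and matplotlib 3.10.9 was used. Log2 folds were taken after adding 1 FPKM over 22202 rows with a mean of at least 1 FPKM. Fragment totals were recovered from low values of genes with 1 transcript, of which 99.0% or more were whole within 0.05 fragments. By chance, 10% of single values would be. The host was the Ensembl row with the longest overlap on the strand. The scripts were checked on simulated data. Entries were named as the 3 highest per position class, the 5 largest folds in each direction and the 5 largest departures from the host per comparison among entries averaging 5 FPKM or more, and the 3 highest per gene list. A choice of these is described. Hosts described entry by entry, the entry in Fn1 and the opposite-strand transcripts were chosen after their values were seen. Results on 1 host are not reported here.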

Additional observations from a re-analysis of the deposited data

How the results depend on the processing

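No paired analysis was possible because each genotype had 1 library. For the same reason no replicate could be left out. Values are given as higher and lower entries for lnc57Rik KO, then for lncGM1082 KO, each against WT. With 0.1 FPKM added in place of 1, calls were 270 and 124, then 107 and 83, with the host called alike for 34.5% of called lnc57Rik KO entries, and with 5 FPKM added they were 11 and 1, then 1 and 0. With no minimum, rho of folds was 0.455 and 0.226, rho of levels in WT 0.697, the share below the host 86.7% and the lower lncGM1082 KO entries 27. A minimum mean of 5 FPKM gave 8 and 13, then 2 and 4, with 33.3% of hosts called alike, rho of folds 0.688 and 0.492, rho of levels 0.364 and 80.1% below the host. With 1 entry per host, 60 and 31 were called for lnc57Rik KO, with 39.6% of hosts called alike, rho of folds 0.517 and 0.303 and 86.7% below the host. Of 3 alternatives chosen after seeing the data, leaving out lymphoid hosts gave 41.0% of hosts called alike, leaving out entries opposite an Ensembl gene gave 90.2% below the host, and keeping whole-fragment spans gave 10 and 8 for lncGM1082 KO and 91.1% below the host. The cause was not tested where the number of entries does not show it. Of 140 such values, 106 stayed close to those reported. Higher entries outnumbered lower ones as reported (119 and 47, then 17 and 16), while lower ones outnumbered higher ones at a minimum of 5 FPKM, and also for lncGM1082 KO with no minimum (22 and 27), with median ratio scaling (17 and 18) and without entries opposite an Ensembl gene (13 and 14). Without replicates, counting error is the only error known, and small spans with few fragments have wide intervals.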
